A study of Sus scrofa domesticus with 8 samples.

Results

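The first 48 hours of culture of porcine ovarian granulosa cells were described by setting the 48 h arrays against the 0 h arrays, 2 arrays at each time and 4 of the 8 arrays of the series. The arrays were chosen by the time point in their titles, and all 27558 features of the deposited table were compared, so that no measured value chose a member. The study measured granulosa cells of the same source at 0 h, 48 h, 96 h and 144 h. It used biotin-labelled total RNA on Affymetrix whole-transcript arrays, whose probes lie along each transcript. The 48 h group held cells kept for 48 h in Dulbecco's modified Eagle's medium with 2% fetal bovine serum, glutamine and antibiotics at 37 °C and 5% CO2. The 0 h group held cells of the same source before culture. Both groups shared the source, 43 crossbred Landrace gilts, young sows that have not farrowed, of 170 days and 98 kg at the median, whose cells were taken after slaughter. The labels give neither group an added hormone, agent or genetic change. They leave unsaid whether the arrays of one time stem from different animals, pools of cells or dishes, so the p-values cover only array-to-array spread, which may be technical.

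Granulosa cells are somatic cells of the ovarian follicle, in layers between its wall and the oocyte. In the follicle they make estradiol from androgens supplied by the theca, feed the oocyte through gap junctions, divide under follicle-stimulating hormone and secrete anti-Müllerian hormone, inhibins and follistatin. After ovulation they stop dividing, turn to progesterone synthesis and form the large luteal cells. In a dish without a follicle they attach to the plastic, spread, and meet serum in place of follicular fluid.

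All levels below are the authors' log2 intensities, computed, per the submitters' processing notes, by RMA, which stands for robust multi-array averaging. All differences are 48 h minus 0 h on that log2 scale with the moderated standard error (SE, n = 2 arrays per time). This SE comes from the limma fit to all 8 arrays, later times included. It is therefore not the spread of a gene's 48 h and 0 h arrays alone, and can be smaller or larger than that spread. Adjusted p-values come from limma's moderated test with Benjamini-Hochberg adjustment over all 27558 features, and "rose", "fell" and "called" mean an adjusted p below 0.05. RMA scales the arrays to each other, so a shift of the whole transcriptome cannot be read from these values, whose median over features lay between 4.52 and 4.63 on the 8 arrays. No detection call was used. A gene is termed low at a time where both arrays of that time lie at or below the array's own lower quartile, which was 3.15 and 3.19 on the 48 h arrays and 3.23 and 3.25 on the 0 h arrays, and no fold is given from or to such a level.

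The first 48 h changed genes in both directions in near equal number. In all 8260 features were called, or 30% of those tested, with 4178 higher at 48 h (15.2%) and 4082 lower (14.8%). Of these, 1658 were at least 2-fold higher (6.02%) and 1380 at least 2-fold lower (5.01%). Among the 10707 named genes, each taken at its brightest feature, 1941 rose (18.1%), 1695 fell (15.8%) and 7071 were not called, 7.35% being at least 2-fold higher and 5.75% at least 2-fold lower. Both 48 h arrays lay above both 0 h arrays in 29.8% of all features and below them in 36%. Without 0 h replicate 2 the number of lower features was 2657, and without 48 h replicate 1 it was 2644. The median difference was -0.04 over all features and -0.04 over the named genes.

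Arrays of the same time differed far less than the times did. The correlation between the 2 arrays across features was 0.993 at 48 h and 0.993 at 0 h. The SD over features of the difference between the 2 arrays was 0.265 at 48 h and 0.249 at 0 h, against 0.729 for the difference between the mean of 48 h and that of 0 h. Large differences were more often upward: 49 features were higher and 18 lower at 48 h by at least 4 on the log2 scale, and 11 were higher and 2 lower by at least 5. Array batches are not in the labels, and one that ran along with time cannot be told apart from it.

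**Figure D1:**
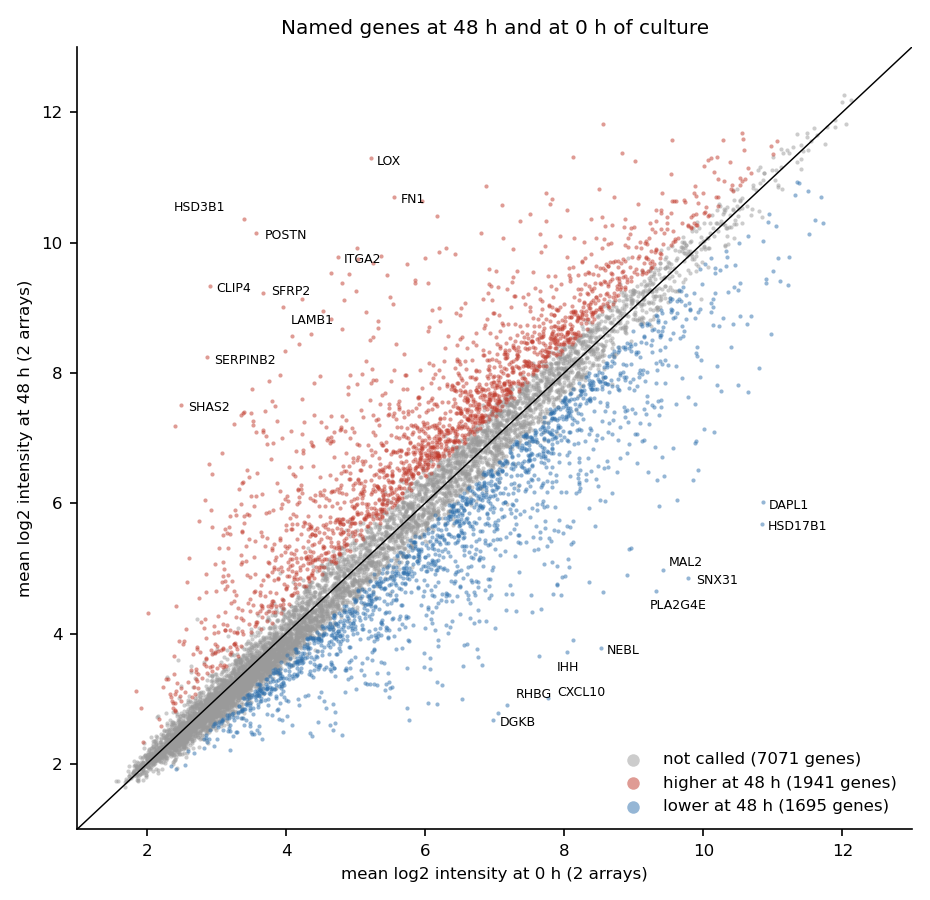
Mean log2 intensity of the 10707 named genes at 48 h (vertical axis) against 0 h (horizontal axis), 2 arrays each, with the line of equal level. Red points were called higher at 48 h (1941 genes) and blue points lower (1695), and the 10 largest rises and falls are labelled; HSD3B1 and POSTN lie near the lower end of the 0 h axis and above 10 at 48 h.

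All measured granulosa cell markers stood above the lower quartile on the 0 h arrays, and most of them were lower after 48 h. Of 16 granulosa cell markers 10 had a named feature, and of these 7 fell, 1 rose and 2 were not called. Those not called were ESR2 and GJA1, the latter with a difference of -0.23. FOXL2, FSHR, CYP19A1 and INHA, which define the cell type, had no feature under their names and are not analysed here. AMH, which encodes anti-Müllerian hormone, measured 3.12 and 3.22 at 48 h, against 5.43 and 5.63 at 0 h. It fell by 2.36 ± 0.16 (adjusted p = 2.16e-05), with no overlap between the arrays of the 2 times. The 48 h arrays of AMH lay around their lower quartiles of 3.15 and 3.19. FST, for follistatin, the binder of activins, measured 9.86 and 9.70 at 48 h, against 11.16 and 11.31 at 0 h, and fell by 1.45 ± 0.23. INHBA, for the beta A subunit of inhibins and activins, measured 10.29 and 10.42 at 48 h, against 11.61 and 11.59 at 0 h, and fell by 1.25 ± 0.15. Both 48 h arrays lay below both 0 h arrays for each of these hormone genes. NR5A1, a master factor of steroid-making cells, fell by 0.65 ± 0.14, a call lost without 0 h replicate 1 (adjusted p = 0.0647) or 48 h replicate 1 (adjusted p = 0.0519). ESR2, for estrogen receptor beta, was not called (-0.55 ± 0.20, adjusted p = 0.0709), but was without 48 h replicate 2 (-0.80, adjusted p = 0.0278), and without 48 h replicate 1 it differed by -0.29 (adjusted p = 0.374). KITLG, which encodes the KIT ligand that granulosa cells present to oocyte and theca, was the marker that rose, with 6.18 and 6.11 at 48 h, against 3.80 and 3.51 at 0 h. Its difference was 2.49 ± 0.33 (adjusted p = 0.00078). The summed linear intensity of the 10 measured markers was 5692 and 5724 on the 48 h arrays, against 11995 and 12360 on the 0 h arrays. In such bulk samples fewer cells of a type and less RNA per cell cannot be told apart.

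Markers of other cells differed in their direction. Most oocyte transcripts were lower at 48 h. Of 12 measured oocyte markers 10 fell and 2 were not called (median -1.70), with a summed intensity of 164 and 153 on the 48 h arrays and 528 and 502 on the 0 h arrays. At 48 h 3 of them were low, among them OOEP, which was low at both times. ZP4, which encodes a protein of the zona pellucida around the oocyte, measured 3.40 and 3.12 at 48 h, against 6.39 and 5.94 at 0 h. It fell by 2.90 ± 0.19 (adjusted p = 1.91e-05). BMP15, a growth factor made by the oocyte, measured 3.54 and 2.97 at 48 h, against 5.65 and 5.31 at 0 h, and fell by 2.22 ± 0.20. For both ZP4 and BMP15, 48 h array 2 was below that array's lower quartile of 3.19. The oocyte-linked importin gene KPNA7 fell by 2.44 ± 0.26 and the oocyte linker histone gene H1FOO fell by 2.37 ± 0.12, and both 48 h arrays were below both 0 h arrays for each. ZP2 and ZP3 of the zona pellucida fell, with differences of -2.04 ± 0.15 and -1.35 ± 0.17, and GDF9, a partner of BMP15, fell by 1.13 ± 0.13.

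Most fibroblast and smooth muscle markers were higher at 48 h. Of 9 fibroblast and stromal markers 7 rose and 2 were not called (median 2.27), with a summed intensity of 2876 and 2819 at 48 h, against 209 and 235 at 0 h. S100A4 measured 5.96 and 6.02 at 48 h, against 3.22 and 3.49 at 0 h, and LUM, for the small proteoglycan lumican, measured 7.78 and 7.54 at 48 h, against 5.54 and 5.23 at 0 h. Their differences were 2.63 ± 0.13 and 2.27 ± 0.17, both called. FAP was low at 0 h and MFAP5 low at both times, and neither was called. Of 9 smooth muscle and pericyte markers 6 rose and 1 fell, with a summed intensity of 4856 and 4452 at 48 h, against 697 and 766 at 0 h. ACTA2, for smooth muscle actin, rose by 2.85 ± 0.12 and CNN1, for calponin, by 2.59 ± 0.19. MYOCD, which encodes myocardin, the factor that switches on smooth muscle genes, moved the other way, with 4.22 and 4.00 at 48 h, against 6.27 and 6.46 at 0 h, and fell by 2.26 ± 0.16. Neither the pericyte marker CSPG4 (-0.22 ± 0.18, adjusted p = 0.415) nor MCAM (-0.07 ± 0.24, adjusted p = 0.857) was called, and the sign of both turned under some alternatives. The part of stromal cells in the results on matrix and contractile genes below was not tested.

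The epithelial keratin genes KRT19 and KRT8 rose, with 3 of 5 epithelial markers called higher and 2 not called, and a summed intensity of 583 and 525 at 48 h, against 93.2 and 109 at 0 h. EPCAM, the epithelial adhesion molecule, was low at 0 h and differed by 0.65 ± 0.11, while KRT18 was not called (-0.35 ± 0.15, adjusted p = 0.11). No leukocyte marker was called among the 14 measured by limma with all 8 arrays, and at an unadjusted p below 0.05, 1 was higher and 2 were lower. The number called was 3, all lower, with the 48 h and 0 h arrays alone. It was 1, lower, with a replicate block or with the mean over a gene's features. After median centring, quantile normalization or cyclic loess it was 1, higher. Leaving out 1 of the 144 h arrays (either one) also brought calls of lower members. Their summed intensity was 445 and 521 at 48 h, against 645 and 671 at 0 h. AIF1 and ITGAM were low at both times, and C1QB, for a complement chain of macrophages, differed by -1.07 ± 0.42 (adjusted p = 0.0924). With the 48 h and 0 h arrays alone the adjusted p of C1QB was 0.000934. As the mean over its features C1QB differed by -0.84 (adjusted p = 0.0467). The 5 theca markers summed to 1387 and 1343 at 48 h, against 1482 and 1505 at 0 h. Among them INSL3 fell by 1.50 ± 0.12 and NR2F2 differed by 0.63 ± 0.18, a call that was lost without any 1 of the 48 h or 0 h arrays (adjusted p of 0.0744 to 0.136). CYP17A1, which defines the androgen-making theca cell, was low at both times, and the luteinizing hormone receptor gene LHCGR was not called (-0.15 ± 0.28, adjusted p = 0.738). Among 5 endothelial markers PECAM1 rose by 1.01 ± 0.15 and KDR fell by 0.54 ± 0.12, whereas TEK was low at both times, and the summed intensity was 84.2 and 86.8 at 48 h, against 69.8 and 72.7 at 0 h. The call of KDR was lost without 0 h replicate 2 (adjusted p = 0.072) or 48 h replicate 2 (adjusted p = 0.0728), and as the mean over its features (-0.26). The 5 erythroid markers summed to 38.1 and 42.4 at 48 h, against 46.2 and 42.3 at 0 h, and HBB, ALAS2 and KLF1 were low at both times.

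**Figure D2:**
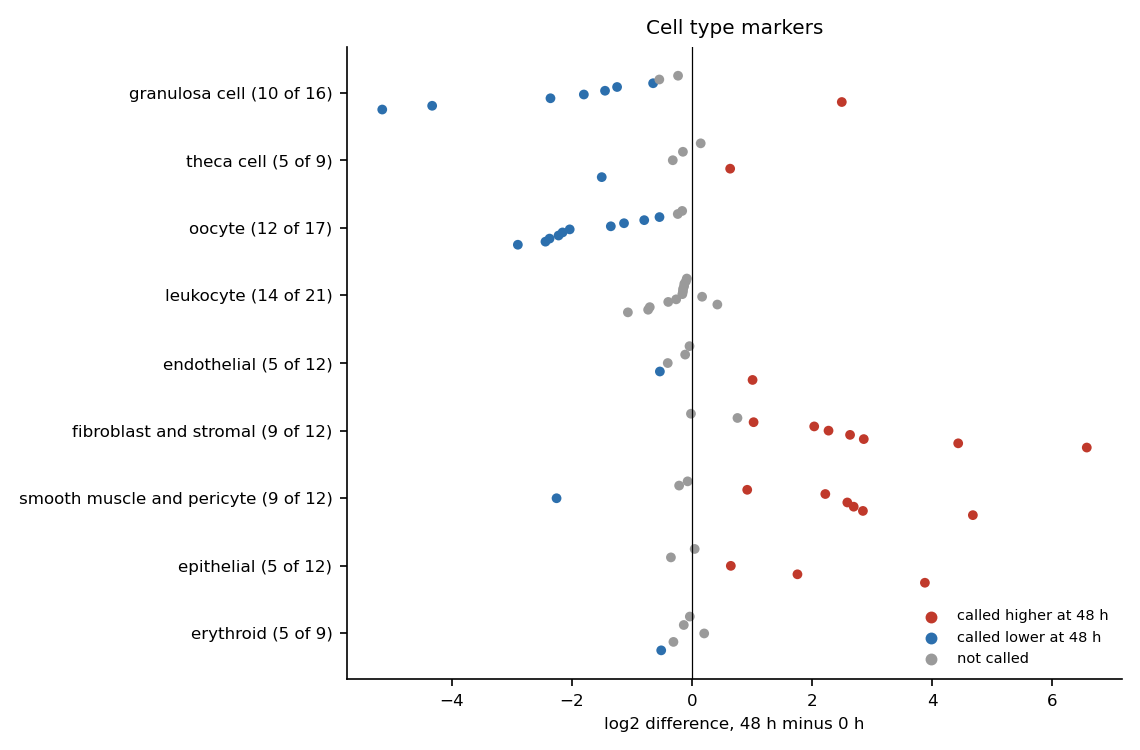
Log2 difference, 48 h minus 0 h, of each measured cell type marker, 1 point a gene, with the number measured of the number listed beside each cell type. Red points were called higher at 48 h, blue points lower and grey points not; the oocyte points lie left of 0 and most fibroblast points to the right.

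The 25 named genes with the largest rise lay between 4.25 and 6.96, and 4 of them, CLIP4, SERPINB2, SHAS2 and LIPH, were low at 0 h. HSD3B1, for the enzyme that makes progesterone out of pregnenolone, measured 10.42 and 10.29 at 48 h, against 3.62 and 3.17 at 0 h. Its difference of 6.96 ± 0.16 (adjusted p = 3.52e-07) was the largest among named genes, and its 0 h arrays lay around their lower quartiles. IGFBP5, which encodes a binding protein of insulin-like growth factors, measured 9.95 and 9.90 at 48 h, against 4.86 and 5.18 at 0 h, and rose by 4.90 ± 0.14. CHI3L1, for a secreted chitinase-like glycoprotein, measured 9.45 and 9.62 at 48 h, against 4.84 and 4.44 at 0 h, and rose by 4.89 ± 0.30. The 48 h arrays lay above the 0 h arrays for all 25 genes, as the choice of these genes required. CAV1, which encodes caveolin, the coat protein of membrane caveolae, measured 8.61 and 8.53 at 48 h, against 4.11 and 4.08 at 0 h, and rose by 4.48 ± 0.12. SERPINB2, for an inhibitor of plasminogen activators, differed by 5.37 ± 0.23, and LIPH, for a secreted lipase, by 4.77 ± 0.35. SPINK5, for a serine protease inhibitor known from skin, measured 8.18 and 8.50 at 48 h, against 3.85 and 4.13 at 0 h, and rose by 4.35 ± 0.34.

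The 25 named genes with the largest fall lay between -5.16 and -3.31, and DGKB, RHBG, SYT10 and CDKL4 were low at 48 h. HSD17B1, for the enzyme of the step from estrone to estradiol, measured 5.60 and 5.76 at 48 h, against 10.78 and 10.90 at 0 h, and fell by 5.16 ± 0.14 (adjusted p = 4.42e-07), the largest fall of a named gene. SNX31, for a sorting nexin, measured 4.80 and 4.91 at 48 h, against 9.71 and 9.84 at 0 h, and fell by 4.92 ± 0.11. DAPL1 measured 6.12 and 5.91 at 48 h, against 10.87 and 10.83 at 0 h, and fell by 4.84 ± 0.16. Each of these genes stood near or above 10 on the 0 h arrays and several units lower on the 48 h arrays. NEBL, for the actin-binding protein nebulette, measured 3.63 and 3.94 at 48 h, against 8.37 and 8.68 at 0 h, and fell by 4.74 ± 0.15. TGFBR3, which encodes betaglycan, the co-receptor of inhibin and transforming growth factor beta, measured 4.68 and 4.59 at 48 h, against 8.50 and 8.62 at 0 h, and fell by 3.92 ± 0.11. MC3R, a melanocortin receptor gene, measured 4.49 and 4.70 at 48 h, against 7.93 and 7.96 at 0 h, and fell by 3.35 ± 0.20. ENPP6, for a choline phosphodiesterase, fell by 4.22 ± 0.12 and EDA, for ectodysplasin of the tumour necrosis factor family, fell by 3.65 ± 0.18. The adhesion gene AMIGO2 fell by 3.50 ± 0.24, the small GTPase gene RASL11B fell by 3.41 ± 0.24 and the secreted SCUBE1 fell by 3.57 ± 0.17.

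**Figure D3:**
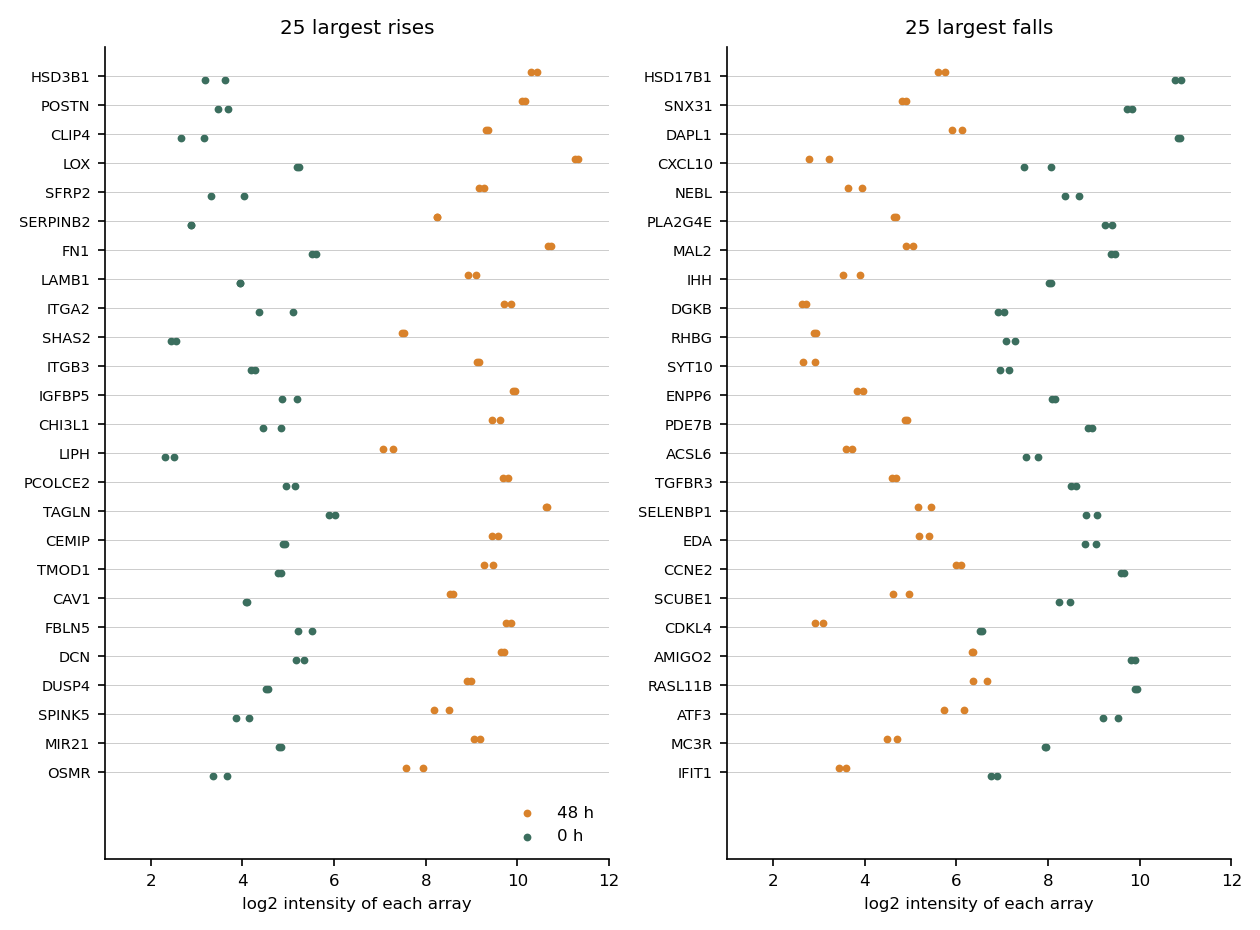
Log2 intensity of each of the 2 arrays at 48 h (orange) and at 0 h (green) for the 25 named genes with the largest rise (left) and the 25 with the largest fall (right). The 2 arrays of a time lie close together, and in every gene shown the arrays of the 2 times are apart, as the choice required.

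The lists below were described by how many measured members were called, read against the background of 18.1% higher and 15.8% lower over all named genes. They were chosen with earlier results of these data known, so a share above the background is not independent of these data. Where leaving out 1 array or another scaling of the arrays moved a count by more than 1.5 times, that count follows. Named members are mostly those with the largest difference in their list, so arrays that do not overlap are largely a result of this choice. Over all features, both 48 h arrays lay above both 0 h arrays in 29.8% and below them in 36%.

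Genes of attachment and of the actin skeleton moved mostly upward. Integrins are the paired receptors that tie the actin skeleton to matrix. Of 15 measured subunits 9 rose and 1 fell (median 1.52), and the fall was not called without 0 h replicate 2. ITGA2, a collagen receptor chain, measured 9.71 and 9.85 at 48 h, against 5.11 and 4.37 at 0 h. It rose by 5.04 ± 0.21, and its other features differed by 3.09 to 5.42. ITGB3, the chain of the vitronectin receptor, measured 9.16 and 9.12 at 48 h, against 4.20 and 4.27 at 0 h, and rose by 4.90 ± 0.12. ITGA5, the fibronectin receptor chain, measured 6.95 and 6.98 at 48 h, against 4.48 and 4.70 at 0 h, and rose by 2.38 ± 0.20. ITGA4 rose by 3.36 ± 0.32 and the collagen-binding ITGA11 by 3.11 ± 0.11. In each of these chains both 48 h arrays lay above both 0 h arrays.

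The actin list counted 17 risen and 3 fallen genes of 26 (median 0.79). ACTN1, for the actin cross-linker alpha-actinin, measured 10.89 and 10.83 at 48 h, against 6.90 and 6.86 at 0 h, and rose by 3.98 ± 0.10 (adjusted p = 4.36e-07). CAPG, which caps actin filament ends, measured 9.66 and 9.67 at 48 h, against 5.68 and 5.79 at 0 h, and rose by 3.92 ± 0.11. CALD1, for caldesmon, rose by 2.12 ± 0.13, PDLIM5 by 1.99 ± 0.12 and MSN, for moesin, which links actin to the membrane, by 1.73 ± 0.14. TAGLN, for transgelin of contractile cells, measured 10.64 and 10.62 at 48 h, against 5.89 and 6.02 at 0 h, and rose by 4.68 ± 0.11, and TMOD1, for tropomodulin at the pointed end of actin filaments, by 4.57 ± 0.16. The arrays of the 2 times did not overlap for any of these genes, which were named for the size of their change.

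Filaments and junctions were mixed. Of 13 intermediate filament genes 3 rose (23.1%) and 2 fell (15.4%), shares near the background. KRT19 measured 8.82 and 8.55 at 48 h, against 4.52 and 5.09 at 0 h, and rose by 3.88 ± 0.52, and KRT8, a keratin of simple epithelia, rose by 1.75 ± 0.30. LMNB1, a nuclear lamin gene, fell by 0.97 ± 0.11, or differed by -0.57 as the mean over its features, and LMNA, another lamin gene, rose by 0.87 ± 0.11. Of 19 microtubule genes 9 rose and 2 fell, with 1 lower without 0 h replicate 2 or 48 h replicate 1. TUBB2B rose by 1.81 ± 0.13 and MAP1B, for a microtubule-binding protein best known from neurons, by 1.42 ± 0.12. CLIP4, of the CAP-Gly family that binds microtubule ends, was low at 0 h and differed by 6.42 ± 0.18. Of 28 junction genes 9 rose and 4 fell, with 2 lower without 0 h replicate 2. F11R, for the junctional adhesion molecule A, measured 9.58 and 9.61 at 48 h, against 6.81 and 7.03 at 0 h, and rose by 2.68 ± 0.15. The alpha-catenin-like CTNNAL1 rose by 2.39 ± 0.23 and DSP, for desmoplakin, by 1.92 ± 0.16, whereas MAL2, a gene of apical membrane transport, measured 4.89 and 5.05 at 48 h, against 9.37 and 9.46 at 0 h, and fell by 4.44 ± 0.12. The 48 h arrays lay apart from the 0 h arrays for each of these 4 genes.

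Matrix glycoproteins rose in the majority, while collagens did so in a minority. Of 38 glycoprotein and proteoglycan genes 23 rose and 3 fell (median 0.70), with 1 lower without 0 h replicate 1 or 48 h replicate 2. FN1, for fibronectin, measured 10.73 and 10.68 at 48 h, against 5.52 and 5.60 at 0 h, a 35.4-fold rise, or 5.14 ± 0.13 on the log2 scale (adjusted p = 3.59e-07). POSTN, for periostin, measured 10.18 and 10.11 at 48 h, against 3.46 and 3.68 at 0 h, and rose by 6.57 ± 0.13. DCN, for decorin, measured 9.71 and 9.65 at 48 h, against 5.16 and 5.34 at 0 h, and rose by 4.43 ± 0.12, and FBLN5, for an elastic fibre protein, by 4.44 ± 0.25. LAMB1, for a laminin beta chain of basement membranes, measured 8.93 and 9.09 at 48 h, against 3.95 and 3.95 at 0 h, and rose by 5.06 ± 0.11. All of these matrix genes had their 48 h arrays several units above their 0 h arrays.

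Among 23 collagen chains 6 rose and 2 fell, 15 were not called, and the median was -0.08, with 1 lower without 0 h replicate 1, 48 h replicate 1 or 48 h replicate 2 and 1 lower after cyclic loess. COL14A1 and COL12A1, which encode collagens on the surface of fibrils, both rose. COL14A1 measured 7.38 and 7.32 at 48 h, against 3.25 and 3.46 at 0 h, a difference of 4.00 ± 0.12. COL12A1 measured 10.18 and 10.10 at 48 h, against 6.68 and 6.94 at 0 h, a difference of 3.33 ± 0.14. The fibril chains COL5A2 and COL3A1 rose by 2.63 ± 0.12 and 2.03 ± 0.15. COL1A1 rose by 2.86 ± 0.19 at its brighter feature, and its other feature differed by 0.24, so its change depends on the feature. Of 29 genes of collagen processing and secretion 12 rose and 3 fell. LOX, for the cross-linking enzyme lysyl oxidase, measured 11.26 and 11.32 at 48 h, against 5.24 and 5.20 at 0 h, and rose by 6.07 ± 0.10, a 67.3-fold change. PCOLCE2, for an enhancer of procollagen cleavage, measured 9.81 and 9.69 at 48 h, against 5.14 and 4.94 at 0 h, and rose by 4.71 ± 0.13. BMP1, for the cleaving protease itself, measured 8.88 and 8.86 at 48 h, against 10.68 and 10.69 at 0 h, and fell by 1.81 ± 0.10, so the 2 genes of that step moved in opposite directions. KDELR3, for a receptor that returns proteins to the endoplasmic reticulum, rose by 2.45 ± 0.16 and the secretory pathway factor CREB3L1 by 1.98 ± 0.11.

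Hyaluronan is the large sugar polymer around expanding cumulus cells. The pig hyaluronan synthase 2 gene, SHAS2, was low at 0 h and measured 7.49 and 7.52 at 48 h, against 2.56 and 2.44 at 0 h, a difference of 5.01 ± 0.27. CD44, the hyaluronan receptor, measured 7.28 and 7.24 at 48 h, against 3.91 and 3.81 at 0 h, and rose by 3.40 ± 0.12. HAPLN1, whose product links hyaluronan to proteoglycans, rose by 1.52 ± 0.19, and CEMIP, for a protein of hyaluronan breakdown, measured 9.58 and 9.46 at 48 h, against 4.89 and 4.93 at 0 h, and rose by 4.61 ± 0.39. HMMR, a hyaluronan-binding protein of the mitotic spindle, fell by 1.71 ± 0.18, and CHSY3, a chondroitin synthase gene, fell by 2.33 ± 0.19. Over the 25 genes of this list 6 rose and 5 fell, with 3 lower without 0 h replicate 1 or 48 h replicate 2, 2 lower without 0 h replicate 2 or 48 h replicate 1 and 3 lower after quantile normalization or cyclic loess.

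**Figure D4:**
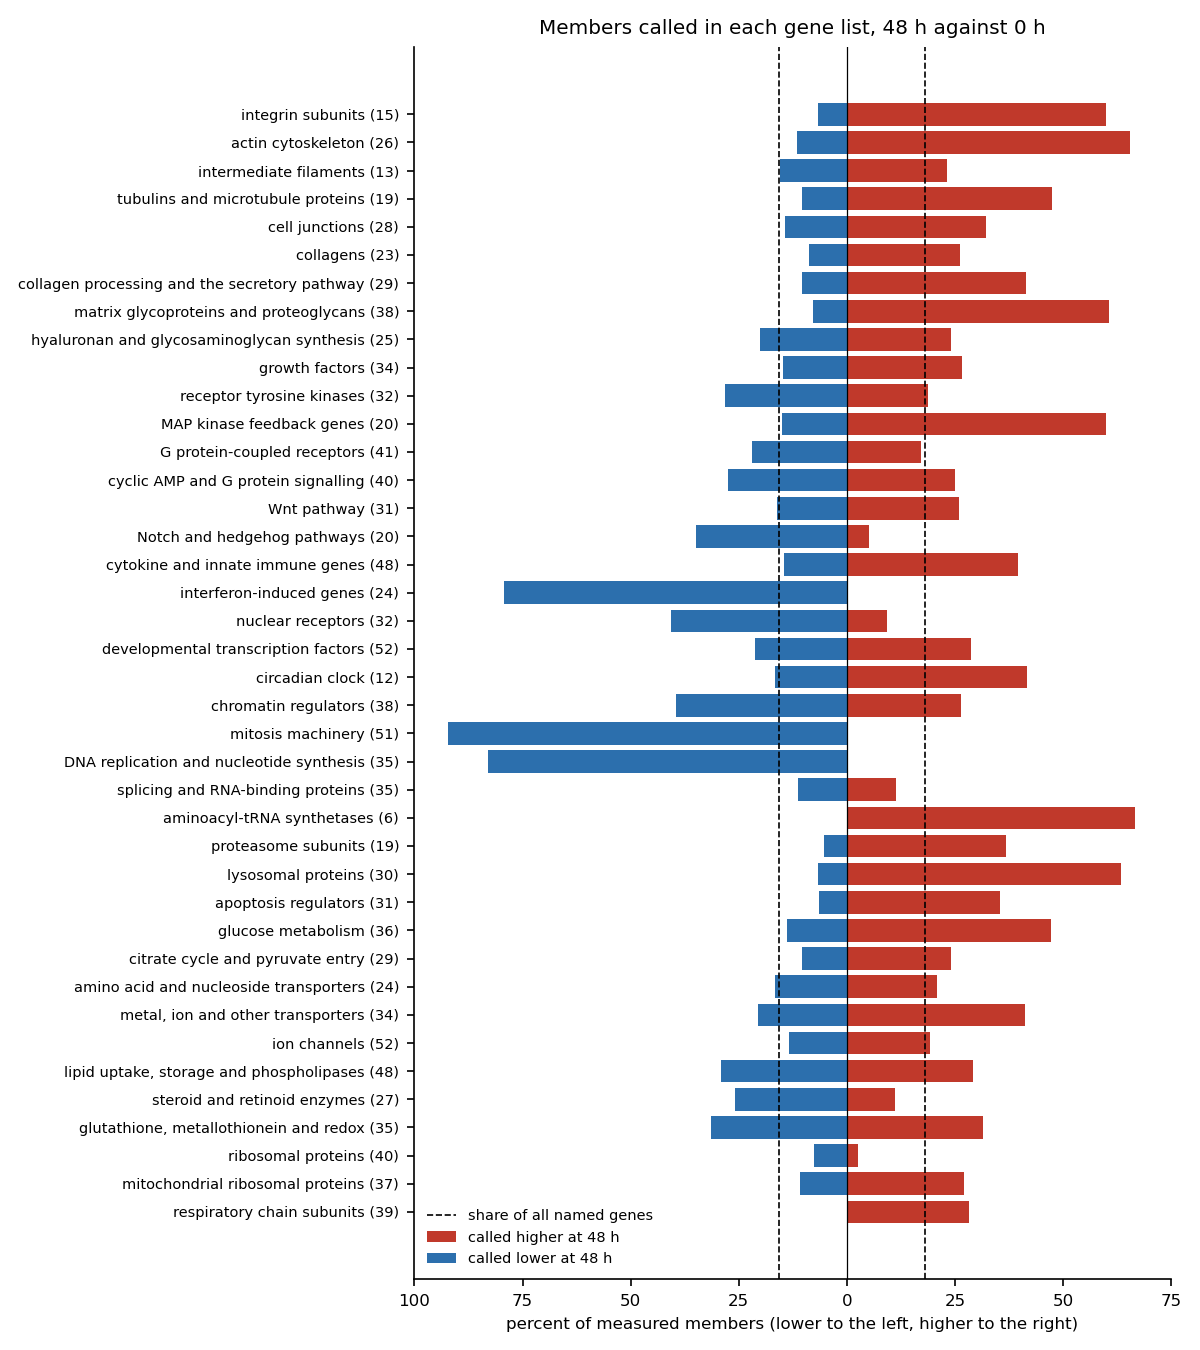
Percent of the measured members of each gene list called higher (red, right) and lower (blue, left) at 48 h against 0 h, with the number measured in brackets and dashed lines at the shares over all named genes, 18.1% higher and 15.8% lower. Mitosis, replication and interferon lists extend to the left alone, and integrin, actin, lysosomal and matrix lists mainly to the right.

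Ligands and receptors of growth signalling changed in both directions. Of 34 growth factor genes 9 rose (26.5%) and 5 fell (14.7%), with 14 higher without 1 of the 144 h arrays (either one). Beside KITLG, VEGFC, which encodes a lymphatic and vascular growth factor, measured 9.07 and 9.18 at 48 h, against 6.87 and 6.79 at 0 h, and rose by 2.29 ± 0.13. Its relative VEGFD was low at 48 h, with 2.85 and 3.02 at 48 h, against 6.04 and 6.05 at 0 h, and a difference of -3.11 ± 0.12. BTC, for the epidermal growth factor receptor ligand betacellulin, and FGF10 were low at 48 h too and differed by -2.88 ± 0.31 and -1.72 ± 0.17. Of 32 receptor tyrosine kinases 6 rose (18.8%) and 9 fell (28.1%), with 5 lower without 0 h replicate 2 or 48 h replicate 1. PDGFRB, a platelet-derived growth factor receptor of mesenchymal cells, measured 7.38 and 7.32 at 48 h, against 4.68 and 4.62 at 0 h, and rose by 2.69 ± 0.11. MET, the hepatocyte growth factor receptor, measured 5.90 and 5.69 at 48 h, against 3.61 and 3.17 at 0 h, and rose by 2.41 ± 0.16. FGFR2 measured 8.44 and 8.57 at 48 h, against 4.44 and 5.96 at 0 h, a difference of 3.30 ± 0.40 (adjusted p = 0.000468), and its 2 arrays at 0 h lay far apart, though both below those of 48 h. ERBB4, a receptor for neuregulins, measured 5.40 and 5.54 at 48 h, against 7.62 and 7.70 at 0 h, and fell by 2.19 ± 0.15, and ROR1 rose by 1.83 ± 0.13.

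Genes that feed back on the MAP kinase cascade rose in the majority. Of 20 measured, 12 rose and 3 fell (median 0.75). DUSP4 and DUSP5 encode phosphatases that switch MAP kinases off in the nucleus, and DUSP4 measured 8.99 and 8.91 at 48 h, against 4.56 and 4.51 at 0 h. They rose by 4.42 ± 0.36 and 2.59 ± 0.22. The signalling inhibitors SPRY2 and SPRED1 rose by 1.92 ± 0.23 and 1.72 ± 0.18, with both 48 h arrays above both 0 h arrays. JUN, a subunit of the transcription factor AP-1, fell, with 7.85 and 7.78 at 48 h, against 10.18 and 10.22 at 0 h, and a difference of -2.39 ± 0.13. ATF3, a stress-induced factor that pairs with JUN, measured 5.74 and 6.17 at 48 h, against 9.21 and 9.52 at 0 h, and fell by 3.41 ± 0.19.

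Receptors coupled to G proteins are the way by which gonadotropins, prostaglandins and vascular peptides reach the cell. Of 41 such genes 7 rose and 9 fell, shares near the background. AGTR1, the angiotensin II receptor gene, measured 7.57 and 7.23 at 48 h, against 3.17 and 3.62 at 0 h, and rose by 4.00 ± 0.20. PTGFR, the receptor of the luteolytic prostaglandin F2-alpha, measured 10.53 and 10.63 at 48 h, against 7.23 and 6.99 at 0 h, and rose by 3.47 ± 0.12. The endothelin receptor genes EDNRA and EDNRB fell, with differences of -2.97 ± 0.12 and -2.40 ± 0.12, and EDNRA measured 6.42 and 6.28 at 48 h, against 9.37 and 9.28 at 0 h. CXCR4, a chemokine receptor gene, rose by 2.24 ± 0.41. Downstream, cyclic AMP is made by adenylyl cyclases and removed by phosphodiesterases, and of 40 genes there 10 rose and 11 fell, with 7 lower without 0 h replicate 2 and 6 lower without 48 h replicate 1 or 48 h replicate 2. PDE7B, which breaks down cyclic AMP, measured 4.93 and 4.87 at 48 h, against 8.95 and 8.87 at 0 h, and fell by 4.01 ± 0.13. PDE5A, which breaks down cyclic GMP, measured 8.82 and 8.56 at 48 h, against 5.23 and 5.42 at 0 h, and rose by 3.37 ± 0.17. PDE3A was low at 0 h and differed by 2.69 ± 0.16, the cyclase gene ADCY8 rose by 2.54 ± 0.43, and the anchor gene AKAP7 fell by 3.12 ± 0.13.

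Of 31 Wnt pathway genes 8 rose and 5 fell, with 2 lower without 0 h replicate 1, 3 lower without 0 h replicate 2 or 48 h replicate 1 and 3 lower after quantile normalization or cyclic loess. SFRP2, a secreted Wnt modulator, measured 9.27 and 9.17 at 48 h, against 3.31 and 4.04 at 0 h, and rose by 5.55 ± 0.21, or by 3.94 at its other feature. DKK3 rose by 2.31 ± 0.12 and the Wnt receptor gene ROR2 by 1.28 ± 0.23. TCF7L2, a nuclear effector of the pathway, measured 6.83 and 6.98 at 48 h, against 8.94 and 8.92 at 0 h, and fell by 2.03 ± 0.11, and LGR4, a receptor of R-spondins, fell by 1.67 ± 0.19. Notch and hedgehog genes were more often lower than higher, with 7 of 20 lower and 1 higher (median -0.30), and 2 higher without 1 of the 144 h arrays (either one). IHH, the hedgehog ligand that granulosa cells send to the theca, measured 3.90 and 3.53 at 48 h, against 8.02 and 8.06 at 0 h, and fell by 4.33 ± 0.18. The Notch ligand genes DLL3 and JAG1 fell, with differences of -2.49 ± 0.15 and -1.88 ± 0.13, and HEY2, a Notch target, fell by 1.43 ± 0.11. GAS1, a co-receptor of hedgehog ligands, was the member that rose, by 1.30 ± 0.23.

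Cytokine genes rose more often than they fell. Of 48 cytokine and innate immune genes 19 rose and 7 fell, with 4 lower without 0 h replicate 1 and 3 lower without 0 h replicate 2, 48 h replicate 2 or 1 of the 96 h arrays (either one). OSMR, the receptor of oncostatin M, measured 7.95 and 7.57 at 48 h, against 3.66 and 3.36 at 0 h, and rose by 4.25 ± 0.16, or by 2.81 at its other feature. IL1R1, the interleukin 1 receptor gene, measured 8.45 and 8.42 at 48 h, against 4.13 and 4.24 at 0 h, and rose by 4.25 ± 0.14. CCL2, a chemokine that draws monocytes, measured 9.84 and 10.00 at 48 h, against 6.32 and 6.28 at 0 h, and rose by 3.62 ± 0.12. These genes had their 48 h arrays above their 0 h arrays. The part of leukocytes in these rises was not tested. CXCL10, a chemokine induced by interferon, went the other way, with 3.22 and 2.79 at 48 h, against 7.48 and 8.07 at 0 h, and a difference of -4.77 ± 0.22. For CXCL10, 48 h array 2 was below that array's lower quartile of 3.19. TNFSF10, for the death ligand TRAIL, was low at 48 h and differed by -3.10 ± 0.50.

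Most interferon-induced genes fell. Of 24 measured, 19 fell (79.2%), and 5 were not called, with a median of -1.30. IFIT1, which encodes a binder of foreign RNA, measured 3.58 and 3.45 at 48 h, against 6.75 and 6.89 at 0 h, and fell by 3.31 ± 0.15 (adjusted p = 3.47e-06). IFIT3 measured 4.48 and 4.69 at 48 h, against 7.50 and 7.54 at 0 h, and fell by 2.94 ± 0.26. MX2, of the antiviral dynamin-like GTPases, measured 4.06 and 4.54 at 48 h, against 6.23 and 6.76 at 0 h, and fell by 2.20 ± 0.28. For all of these the 48 h arrays lay below the 0 h arrays. HERC5, a ligase that attaches the ubiquitin-like ISG15, fell by 2.19 ± 0.14 and XAF1 fell by 1.94 ± 0.14. The count of fallen members stayed between 18 and 20 when each array in turn was left out.

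Nuclear receptors fell more often than they rose, with 13 lower and 3 higher of 32 (median -0.32), and 6 higher without 1 of the 144 h arrays (either one), 5 higher after median centring, 8 lower without 0 h replicate 1 or 0 h replicate 2 and 7 lower without 48 h replicate 1. ESR1, for estrogen receptor alpha, measured 6.28 and 6.56 at 48 h, against 9.35 and 9.52 at 0 h, and fell by 3.02 ± 0.20. NR5A2, which drives steroid enzyme genes in granulosa and luteal cells, measured 7.62 and 7.55 at 48 h, against 9.37 and 9.41 at 0 h, and fell by 1.80 ± 0.27. NR3C2, the mineralocorticoid receptor gene, fell by 2.17 ± 0.18 and the immediate early NR4A2 fell by 1.10 ± 0.14. THRB, a thyroid hormone receptor gene, rose by 1.51 ± 0.19. The arrays of the 2 times did not overlap for these 5 genes.

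Of 52 developmental transcription factors 15 rose and 11 fell, with 9 higher without 0 h replicate 1, 8 higher without 48 h replicate 2 and 7 lower without 0 h replicate 2 or 48 h replicate 2. SOX9, which drives Sertoli cell and cartilage fate, measured 8.07 and 8.28 at 48 h, against 5.30 and 5.01 at 0 h, and rose by 3.02 ± 0.14 (adjusted p = 4.35e-06). SOX6 measured 5.72 and 5.90 at 48 h, against 3.03 and 3.37 at 0 h, and rose by 2.61 ± 0.18, and PRRX1, a factor of mesenchyme, rose by 2.11 ± 0.38. FOXP2 fell by 2.32 ± 0.13 and FOXM1, which drives genes of the G2 and M phases, fell by 1.88 ± 0.14. Among 12 clock genes 5 rose and 2 fell. BHLHE40, a repressor of the clock, measured 9.78 and 9.74 at 48 h, against 5.93 and 6.08 at 0 h, and rose by 3.75 ± 0.11. PER1 and CRY2 fell, with differences of -1.36 ± 0.13 and -1.16 ± 0.17, while CRY1 and NPAS2 rose by 0.96 ± 0.11 and 0.90 ± 0.14. BHLHE40 had both 48 h arrays far above both 0 h arrays.

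Of 38 chromatin regulators 10 rose and 15 fell, with 6 higher without 48 h replicate 2. HMGA1 and HMGA2, architectural proteins that bind the minor groove of DNA, rose by 2.26 ± 0.44 and 1.98 ± 0.19, and HMGA1 measured 8.30 and 7.63 at 48 h, against 5.68 and 5.74 at 0 h. HDAC9, a histone deacetylase gene, rose by 1.67 ± 0.11. The fallen members included ASF1B, a histone chaperone of replicating cells, with 6.50 and 6.61 at 48 h, against 8.65 and 8.59 at 0 h, and a difference of -2.07 ± 0.10, and HMGB2, which fell by 1.90 ± 0.13.

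Nearly all measured genes of cell division fell. Of 51 mitosis genes 47 fell (92.2%), and 4 were not called, with a median of -1.62. TOP2A, the topoisomerase that untangles chromosomes, measured 6.33 and 6.62 at 48 h, against 9.26 and 9.14 at 0 h, and fell by 2.73 ± 0.18 (adjusted p = 2.14e-05). KIF15, a spindle motor, measured 5.55 and 5.26 at 48 h, against 8.12 and 8.13 at 0 h, and fell by 2.72 ± 0.15. CDC20, the activator of the anaphase-promoting complex, measured 5.99 and 6.07 at 48 h, against 8.54 and 8.64 at 0 h, and fell by 2.55 ± 0.13. NEK2, a centrosome kinase, fell by 2.64 ± 0.20 and CENPA, the histone of the centromere, fell by 2.44 ± 0.12. Each still stood above the lower quartile at 48 h, and each had its 48 h arrays below its 0 h arrays.

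Replication genes fell in the majority too, with a smaller median. Of 35 genes 29 fell and 6 were not called (median -0.91). CCNE2, a cyclin of S-phase entry, measured 6.11 and 5.99 at 48 h, against 9.66 and 9.59 at 0 h, and fell by 3.58 ± 0.20. POLD1, the catalytic chain of DNA polymerase delta, measured 4.71 and 4.98 at 48 h, against 6.94 and 6.94 at 0 h, and fell by 2.09 ± 0.12. E2F1, an activator of S-phase genes, measured 5.40 and 5.57 at 48 h, against 7.40 and 7.72 at 0 h, and fell by 2.07 ± 0.15. The repressor E2F8 fell by 2.07 ± 0.16 and DTL, which marks proteins for destruction in S phase, fell by 1.97 ± 0.12. With each array left out in turn, 44 to 49 mitosis genes and 24 to 30 replication genes were called lower.

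Lysosomal genes rose in the majority. Of 30 lysosomal genes 19 rose (63.3%) and 2 fell (median 0.68). CTSC and CTSH, for cathepsins C and H, rose by 1.99 ± 0.10 and 1.48 ± 0.16, and CTSC measured 10.68 and 10.72 at 48 h, against 8.70 and 8.73 at 0 h. ATP6V1H, of the proton pump that acidifies the lysosome, rose by 1.39 ± 0.11 and GALC, for a glycolipid-splitting enzyme, by 1.30 ± 0.11. CTSO, another cathepsin gene, measured 7.80 and 7.89 at 48 h, against 9.45 and 9.46 at 0 h, and fell by 1.61 ± 0.11. Among 19 proteasome genes 7 rose and 1 fell, with 2 lower without 1 of the 144 h arrays (either one) or after quantile normalization or cyclic loess, and the fall not called without 0 h replicate 2, and PSMC6 rose by 1.00 ± 0.15. Of 6 aminoacyl-tRNA synthetases 4 rose, RARS by 1.02 ± 0.20, with 1 lower after cyclic loess. Of 35 splicing genes 4 rose and 4 fell, with 2 higher without 0 h replicate 1, 0 h replicate 2, 48 h replicate 2 or 1 of the 96 h arrays (either one), 2 lower without 0 h replicate 1, 0 h replicate 2, 48 h replicate 1, 48 h replicate 2 or 1 of the 96 h arrays (either one) and 10 lower after cyclic loess, and RBFOX2, a splicing regulator, rose by 1.29 ± 0.11. Ribosomal protein genes were called higher in 1 and lower in 3 of 40 cases, with 2 higher without 0 h replicate 1 or 1 of the 144 h arrays (either one), 0 higher without 0 h replicate 2, 48 h replicate 1 or 1 of the 96 h arrays (either one), 2 higher after median centring or cyclic loess, 1 lower without 0 h replicate 1, 0 h replicate 2, 48 h replicate 2 or 1 of the 96 h arrays (either one) and 5 lower after cyclic loess.

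Among 31 apoptosis genes 11 rose and 2 fell, with 4 lower without 1 of the 144 h arrays (either one). CLU, for the secreted chaperone clusterin, measured 10.64 and 10.53 at 48 h, against 7.70 and 7.90 at 0 h, and rose by 2.79 ± 0.12. BCL2L11, which encodes the death-promoting protein BIM, measured 8.62 and 8.60 at 48 h, against 6.73 and 6.72 at 0 h, and rose by 1.88 ± 0.11. CFLAR, an inhibitor of death receptor signalling, rose by 1.23 ± 0.18 and CASP1, for the caspase that matures interleukin 1 beta, by 1.70 ± 0.20. Promoters and inhibitors of cell death are thus both among the risen members.

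Glucose genes rose more often than they fell. Of 36 measured, 17 rose (47.2%) and 5 fell, with 11 higher without 0 h replicate 1 and 3 lower without 0 h replicate 2, 48 h replicate 1 or 1 of the 96 h arrays (either one). HK2 and HK1, for the hexokinases that trap glucose in the cell, rose by 1.84 ± 0.12 and 1.62 ± 0.13, and HK2 measured 7.11 and 7.07 at 48 h, against 5.27 and 5.23 at 0 h. ENO3, for an enolase, rose by 1.77 ± 0.15 and GYS1, for glycogen synthase, by 1.47 ± 0.12. PFKFB4, of the enzymes that set fructose 2,6-bisphosphate, measured 5.15 and 5.64 at 48 h, against 6.70 and 7.03 at 0 h, and fell by 1.47 ± 0.25. Among 29 genes of the citrate cycle and pyruvate entry 7 rose and 3 fell, with 4 higher without 0 h replicate 1, 3 higher without 48 h replicate 1 and 4 higher after cyclic loess. PDK4, whose kinase closes pyruvate dehydrogenase, fell by 1.27 ± 0.19 and PC, for pyruvate carboxylase, fell by 1.22 ± 0.12. PDK3 rose by 2.41 ± 0.12 at its brighter feature, against a difference of -0.05 at the other. Respiratory chain subunits counted 11 higher and 0 lower of 39, with 5 higher without 0 h replicate 1 or 0 h replicate 2, 4 higher without 48 h replicate 1, 7 higher without 1 of the 96 h arrays (either one), 7 higher after quantile normalization, 6 higher after cyclic loess, 1 lower without 48 h replicate 2, 1 lower after quantile normalization and 2 lower after cyclic loess.

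Steroid and lipid genes changed in both directions. Of 27 steroid and retinoid enzymes 3 rose (11.1%) and 7 fell (25.9%), with 1 higher without 0 h replicate 1 or 48 h replicate 2. Beside HSD3B1 and HSD17B1, FDXR, whose reductase passes electrons to the mitochondrial steroid enzymes, measured 5.49 and 5.36 at 48 h, against 7.85 and 7.78 at 0 h, and fell by 2.39 ± 0.12. HSD17B8 fell by 0.94 ± 0.14. GSTA1, known to take part in steroid isomerisation, fell by 0.99 ± 0.26 (adjusted p = 0.022), a call lost without any 1 of the 48 h or 0 h arrays (adjusted p of 0.0848 to 0.0972). Of 48 lipid genes 14 rose (29.2%) and 14 fell (29.2%). PLA2G4E, a phospholipase, measured 4.63 and 4.69 at 48 h, against 9.24 and 9.40 at 0 h, and fell by 4.66 ± 0.11. ACSL6 and ACSL4, for acyl-CoA synthetases that activate long-chain fatty acids, moved apart, with a difference of -3.99 ± 0.14 for ACSL6 and of 2.54 ± 0.16 for ACSL4. ACSL6 measured 3.59 and 3.73 at 48 h, against 7.51 and 7.77 at 0 h, and ACSL4 measured 11.51 and 11.24 at 48 h, against 8.75 and 8.91 at 0 h. LIPG, for a lipase that acts on lipoproteins, rose by 2.95 ± 0.23.

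Redox genes split as well, with 11 higher and 11 lower of 35, and 5 lower without 0 h replicate 1, 6 lower without 0 h replicate 2 or 48 h replicate 2 and 7 lower without 48 h replicate 1. SELENBP1, for selenium-binding protein 1, measured 5.16 and 5.45 at 48 h, against 8.84 and 9.07 at 0 h, and fell by 3.65 ± 0.16. SRXN1, which restores oxidised peroxiredoxins, measured 6.63 and 6.48 at 48 h, against 4.02 and 4.06 at 0 h, and rose by 2.52 ± 0.11, and SOD2, the mitochondrial superoxide dismutase gene, rose by 1.56 ± 0.23. GCLC, whose enzyme starts glutathione synthesis, fell by 1.88 ± 0.12 and the quinone reductase gene NQO1 fell by 1.78 ± 0.15.

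Transporters and channels changed in both directions. Of 34 transporters of metals, ions and other solutes 14 rose (41.2%) and 7 fell (20.6%). RHBG, an ammonium transporter gene, was low at 48 h, with 2.94 and 2.88 at 48 h, against 7.08 and 7.28 at 0 h, and a difference of -4.27 ± 0.16. SLC44A5, of the choline transporter family, measured 7.49 and 7.51 at 48 h, against 3.94 and 3.75 at 0 h, and rose by 3.65 ± 0.14. SLC40A1, for the iron exporter ferroportin, rose by 2.24 ± 0.13 and the efflux pump gene ABCC3 by 2.03 ± 0.14, whereas ATP8A1, a phospholipid flippase gene, fell by 2.73 ± 0.20. Of 24 amino acid and nucleoside transporters 5 rose (20.8%) and 4 fell (16.7%), shares near the background. Without 0 h replicate 1, 0 h replicate 2 or 48 h replicate 1, 2 were lower. SLC1A1 and SLC36A4 rose by 1.86 ± 0.34 and 1.63 ± 0.20. Of 52 channel genes 10 rose (19.2%) and 7 fell (13.5%), shares near the background. KCNJ2, an inward rectifier of potassium, measured 7.10 and 7.38 at 48 h, against 4.33 and 4.18 at 0 h, and rose by 2.99 ± 0.14, and KCNA4, a voltage-gated potassium channel, measured 4.17 and 4.55 at 48 h, against 7.04 and 7.28 at 0 h, and fell by 2.80 ± 0.20. ANO5 of the anoctamin family rose by 3.47 ± 0.16, TRPC4 was low at 0 h and differed by 2.28 ± 0.14, and CACNA2D1, a calcium channel subunit, rose by 1.59 ± 0.18.

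What became of the early genes was read at the later times, each set against 48 h, and genes shown here were picked from the 25 largest rises and falls after their values were seen. These comparisons share the 48 h arrays with the one above. Over all named genes the share called against 48 h was 14.3% higher and 17% lower for 96 h, and 5.53% higher and 4.89% lower for 144 h. LOX measured 5.24 and 5.20 at 0 h, 11.26 and 11.32 at 48 h, 11.68 and 11.71 at 96 h and 11.48 and 11.43 at 144 h. MIR21 stood at 9.05 and 9.18 at 48 h, 8.86 and 8.89 at 96 h and 9.32 and 8.93 at 144 h, and was not called at either later time against 48 h. FN1 and TAGLN rose further, by 0.90 ± 0.13 and 1.07 ± 0.11 at 96 h against 48 h.

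Other genes of the early rises were lower again at 96 h. LIPH measured 2.50 and 2.32 at 0 h, 7.29 and 7.07 at 48 h, 2.82 and 2.83 at 96 h and 2.95 and 4.26 at 144 h. Its difference was -4.35 ± 0.35 at 96 h (adjusted p = 0.0001) and -3.57 ± 0.35 at 144 h (adjusted p = 0.000864), each against 48 h. SPINK5 measured 4.63 and 4.59 at 96 h and 4.19 and 5.40 at 144 h, with differences from 48 h of -3.73 ± 0.34 and -3.54 ± 0.34. Both genes were highest on the 48 h arrays, and their 144 h arrays stood above their 0 h arrays. The 2 arrays at 144 h lay far apart in both genes, however. LIPH was low at 96 h, as at 0 h, and its 144 h array 1 (2.95) was below that array's lower quartile of 3.13. CHI3L1, TMOD1 and DUSP4 were lower than at 48 h at both later times as well, with differences of -3.06 ± 0.30, -2.00 ± 0.16 and -1.41 ± 0.36 at 96 h.

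Among the early falls shown, 5 were not called again and others moved. The differences of NEBL, MAL2, IHH, RHBG and MC3R from 48 h lay between -0.08 and 0.11 at 96 h, and none was called there or at 144 h. RHBG was already low at 48 h, and IHH and NEBL stood little above the lower quartile. A further fall of these genes had little room to show. DAPL1 fell further, with 6.12 and 5.91 at 48 h, 2.80 and 2.81 at 96 h and 2.67 and 3.14 at 144 h, and a difference of -3.21 ± 0.16 at 96 h against 48 h (adjusted p = 1.73e-05). It was low at 96 h and at 144 h. HSD17B1 fell further too, with a difference of -1.67 ± 0.14 on the same contrast. RASL11B and ATF3 partly returned, with 1.76 ± 0.24 and 1.07 ± 0.19 at 96 h against 48 h.

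**Figure D5:**
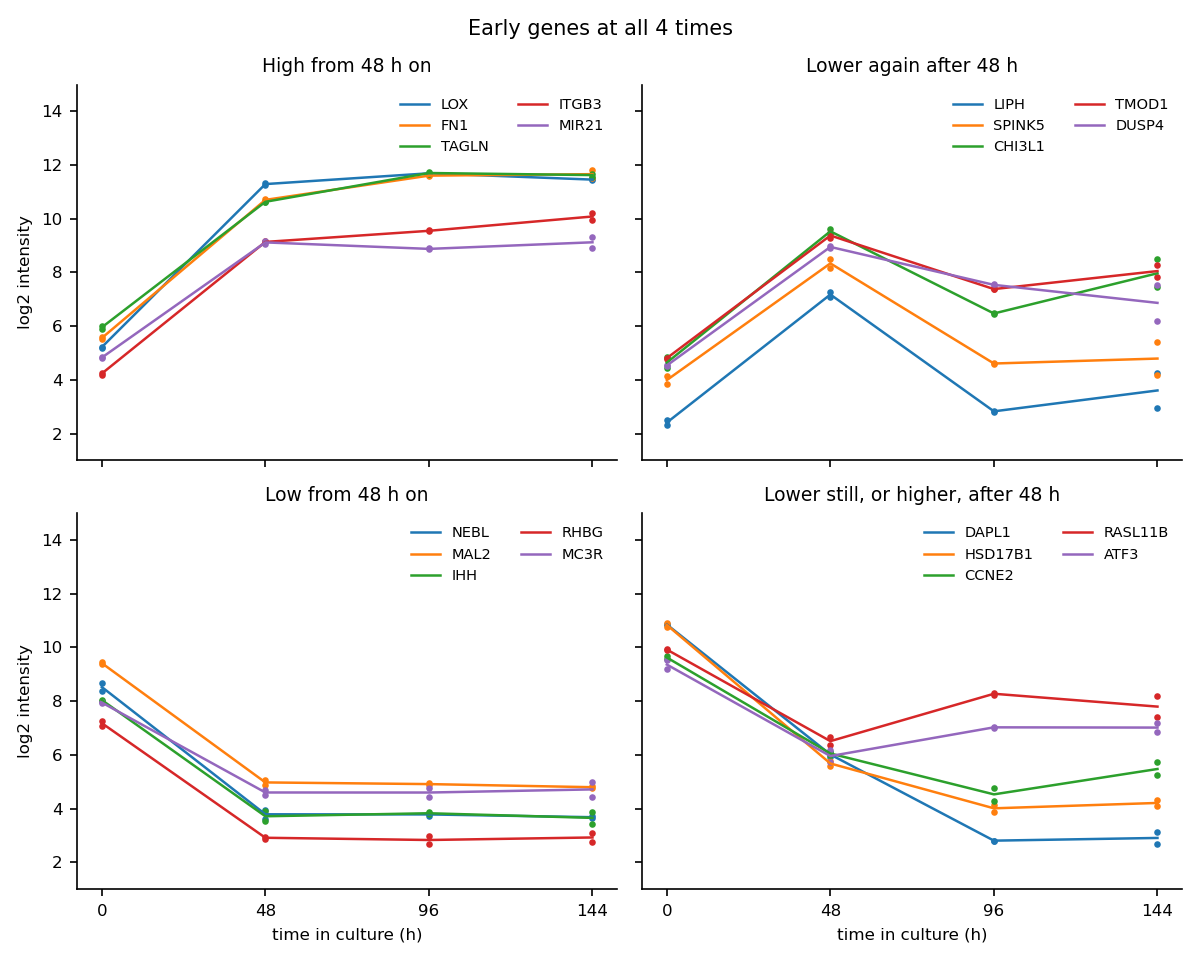
Log2 intensity at 0 h, 48 h, 96 h and 144 h of 20 genes picked from the 25 largest early rises and falls after their values were seen; points are single arrays and lines join the means of 2 arrays. LIPH and SPINK5 are highest at 48 h, LOX and FN1 stay high, and DAPL1 falls again between 48 h and 96 h.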

How the data were processed

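The deposited table held log2 intensities of 27558 features on 8 arrays, which the authors had made by RMA, per the submitters' processing notes. Which program and settings made them is not given in the sources used here. No value was missing, and no further normalization or filter was applied.

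Gene names come from GEO's annotation of the platform and may be dated. Of the features 11735 had 1 symbol, 612 several and 15211 none in the table used, 6 symbols were updated through the gene identifier, and the 10707 named genes were each taken at the feature with the highest mean. Means of the 4 times were estimated over all 8 arrays in limma 3.58.1 (lmFit and eBayes, R 4.3.3), leaving 4 residual degrees of freedom. The test was two-sided, with Benjamini-Hochberg adjustment over all 27558 features. The steps were tested on simulated data.

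Genes and lists were chosen with earlier results of these data known. Genes open to naming were the top 25 called genes in each direction whose arrays do not overlap, and every measured marker. So were, in each of 49 lists, up to 5 members with the largest difference. Not all of these genes are named in the text. Another list is not reported here. No promoter sequence was used. Alternatives were median centring, quantile normalization, cyclic loess, leaving out dim features, a trended and robust eBayes, only the 4 arrays compared, a replicate block, the mean over a gene's features, a stricter threshold and leaving out each array in turn. The number of arrays limits the precision.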

Additional observations from a re-analysis of the deposited data

How the results depend on the processing

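Of 3848 gene differences recomputed under the alternatives, 3819 kept their direction and their side of the threshold. They belong to 214 genes, most of them named for a large difference, so this agreement follows largely from the choice of genes. Several alternatives, such as leaving out a 96 h or 144 h array, leave the difference itself unchanged and can alter only its p-value. The changes of direction were in markers that were not called: CSPG4 differed by -0.46 to 0.0271 when each array in turn was left out and by 0.16 as a mean over its features, and MCAM by -0.20 to 0.0564 and, after cyclic loess, by 0.0839. The cause was not tested. At an adjusted p below 0.01, a stricter threshold by construction, 5147 features were called, 2719 higher and 2428 lower. Leaving out each array in turn gave 5577 to 10258 called features, 2882 to 5093 higher and 2644 to 5165 lower, 1560 to 1756 at least 2-fold higher and 1359 to 1435 at least 2-fold lower. The highest totals came without 1 of the 144 h arrays (either one). Median centring gave 4578 higher and 3589 lower. Of 1764 list counts 171 moved by more than 1.5 times. The deviations of same-numbered arrays correlated between -0.04 and 0.19 over the 6 pairs of times, so the numbers were not taken to pair the arrays. With the replicate block 8233 features were called, 4156 higher and 4077 lower, of which 1666 and 1382 at least 2-fold. With 2 arrays per time and no detection call, differences of features near the lower quartile have no known distance from background.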

Other observations

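MicroRNA precursor genes were looked at after the values were seen. Of 161 measured, 21 were higher at 48 h (13%) and 6 lower (3.73%), against 18.1% higher and 15.8% lower over all named genes, with a median difference of 0.01. Of the measured genes 93 were low at both times, and 13 of the 21 higher ones were low at 0 h. MIR21, whose mature microRNA is abundant in many cultured and dividing cells, measured 9.05 and 9.18 at 48 h, against 4.81 and 4.85 at 0 h, and differed by 4.29 ± 0.15 (adjusted p = 1e-06). MIR221 measured 5.65 and 5.42 at 48 h, against 2.97 and 3.41 at 0 h, and differed by 2.34 ± 0.17. MIR155 and MIR27B were low at 0 h and differed by 2.30 ± 0.24 and 2.07 ± 0.15. Among microRNA genes in the RefSeq gene order, some called ones stood next to each other, at whatever distance. These were MIR221 with MIR222, MIR181A-2 with MIR181B-2, and MIR27B with MIR23B and MIR24-2. MIR155 with MIRLET7C, MIRLET7C with MIR99A, and MIR421 with MIR374B were others. Of these, MIR222, MIR23B, MIR24-2, MIRLET7C, MIR421 and MIR374B were low at 0 h too. How often called genes would be neighbours by chance was not tested. MIR328 differed by -1.04 ± 0.25 (adjusted p = 0.0157), and its call was lost without 0 h replicate 2 (-0.90) or 48 h replicate 1 (-0.64). Whether these signals came from a precursor or from a host transcript was not tested.

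Features without a single gene name were called in 27.2% of cases, against 33.7% of named features. The largest fall on the array was such a feature, 15214965, which measured 3.40 and 3.41 at 48 h, against 10.40 and 10.41 at 0 h, a difference of -7.00 ± 0.20.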
